A study of Mus musculus with 7 samples.

Results

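Upper-layer intratelencephalic neuron genes are 8 markers of cortical layers 2 to 4, namely Cux1, Cux2, Rorb, Rasgrf2, Otof, Lamp5, Pou3f1 and Calb1. They were taken by symbol from a list, and all 8 were found, each once, among the 17732 genes of the authors' deposited table. Bulk polyadenylated RNA was sequenced from the medial prefrontal cortex of wild-type males of 129SvEv, an inbred mouse strain, after retrieval of a remote memory. The labels name the groups CFC (3 libraries) and SC (4 libraries) without spelling out these names, and give no age, time or further treatment. The table compares 2 groups without naming them and was read as CFC against SC, the groups of the labels. It gives 1 mean normalized count, 1 log2 fold change and 1 standard error per gene, so no value of a single library is shown here. Since the numerator is not stated, differences are called positive or negative after the deposited sign.

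The neocortex is built of layers that hold projection neurons of different kinds. Intratelencephalic neurons send their axons to other cortical areas, across the corpus callosum and to the striatum, and they make up nearly all projection neurons of layers 2 to 4. Neurons that leave the telencephalon lie in the deep layers, with extratelencephalic cells in layer 5 and corticothalamic cells in layer 6. The mouse medial prefrontal cortex is agranular, which means that it has no distinct layer 4. None of the 8 genes marks upper-layer neurons alone. Lamp5 also labels a class of GABAergic interneurons, Calb1 is found in interneurons and in striatal spiny neurons, and Pou3f1 is also expressed by extratelencephalic neurons of layer 5.

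Upstream sequences are shown for 3 of these genes, Rasgrf2 as a gene whose difference passed the threshold, Rorb (its upstream start) as one whose difference did not, and Cux2 for a pair of starts that differ in composition. They come from a RefSeq table on GRCm38.p6, which had entries for Rasgrf2, Rorb, Cux2, Cux1 and Lamp5. Each runs 5' to 3' on the gene's strand, upstream of a RefSeq start, and is limited to bases outside exons of GENCODE M21. Capitals mark matches to a searched motif, and positions count back from -1, the base before the start.
Rasgrf2, chr13:92131829-92132078, minus strand: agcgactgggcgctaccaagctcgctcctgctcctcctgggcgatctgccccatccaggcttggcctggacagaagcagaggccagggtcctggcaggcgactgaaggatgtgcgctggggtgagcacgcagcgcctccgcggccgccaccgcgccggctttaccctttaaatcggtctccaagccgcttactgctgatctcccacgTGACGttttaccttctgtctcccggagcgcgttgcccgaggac
Rorb, chr19:19111197-19111446, minus strand: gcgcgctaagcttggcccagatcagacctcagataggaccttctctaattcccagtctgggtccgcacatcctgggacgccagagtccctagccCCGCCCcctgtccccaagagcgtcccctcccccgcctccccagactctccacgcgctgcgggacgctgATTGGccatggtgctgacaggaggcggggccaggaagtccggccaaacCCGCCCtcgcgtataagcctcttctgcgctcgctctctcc
Cux2, upstream start, chr5:122049852-122050015, minus strand: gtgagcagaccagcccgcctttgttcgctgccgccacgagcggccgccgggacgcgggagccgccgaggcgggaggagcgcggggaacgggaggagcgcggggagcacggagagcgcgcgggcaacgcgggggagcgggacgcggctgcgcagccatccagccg
Cux2, downstream start, chr5:122047892-122048075, minus strand: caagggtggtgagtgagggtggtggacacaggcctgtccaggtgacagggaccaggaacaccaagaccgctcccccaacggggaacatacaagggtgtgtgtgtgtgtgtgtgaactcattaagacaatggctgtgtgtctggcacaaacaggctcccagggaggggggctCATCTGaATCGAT

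On both strands, 10 motifs were searched in the 250 bases before each start. They were CAGATG and CAGCTG (E-boxes), AGGTCA (a ROR half-site), ATGCAAAT (the POU octamer), ATCGAT (for CUT factors), TGACG (a CRE half-site), GCGTGGGCG (an EGR site), TATAAA (the TATA box), CCAAT (bound by NF-Y) and GGGCGG (a GC box). Rasgrf2 held 1 match, TGACG at -43 to -39, a string present in 17.8% of the 32851 windows of the table. Rorb held GGGCGG at -156 to -151 and at -40 to -35 and CCAAT at -88 to -84, all on the other strand. These occur in 32.7% and 33.8% of windows. The downstream Cux2 window held CAGATG at -79 to -74 and ATCGAT at -72 to -67, found in 14.4% and 0.728% of windows, and TATAAA at -67 to -62, which lies in an annotated exon except for the 1 base it shares with ATCGAT and is found in 12.4%. The upstream Cux2 window held none of the 10 motifs and differed in composition, with 80% G and C and 40 CpG pairs against medians of 52.4% and 6 over all windows. Over the 5 genes, 8 windows were searched and 4 of them held a match, and no motif was common to the 3 genes shown. These matches describe the sequence and say nothing about binding.

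In the authors' deposited table the log2 fold changes of all 8 genes were negative, from -0.42 for Otof to -0.02 for Pou3f1, with a median of -0.24. On the linear scale that median is a difference of -15.3%, and 3.65% of all genes with an adjusted p-value lay at or below it. A negative sign was carried by 50.6% of the 13060 genes with an adjusted p-value, and by 48.3% of the 4826 of them within the range of mean count of the 8. Rasgrf2 and Otof were under an adjusted 0.05 in the authors' Wald test, that is 2 of 8, where 0.513% of all genes passed and 0.145% passed with a negative sign. Cux2 and Calb1 were negative at an unadjusted p-value under 0.05 without passing the adjusted one, which made 4 of 8 at that level, against 3.54% of all genes. Within the range of mean count of the 8 genes these shares were 0.228% and 4.02%. The genes were chosen with results of these data known, so the counts are given as a description. In bulk tissue, fewer cells of a type and less RNA per cell cannot be told apart.

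**Figure D1:**
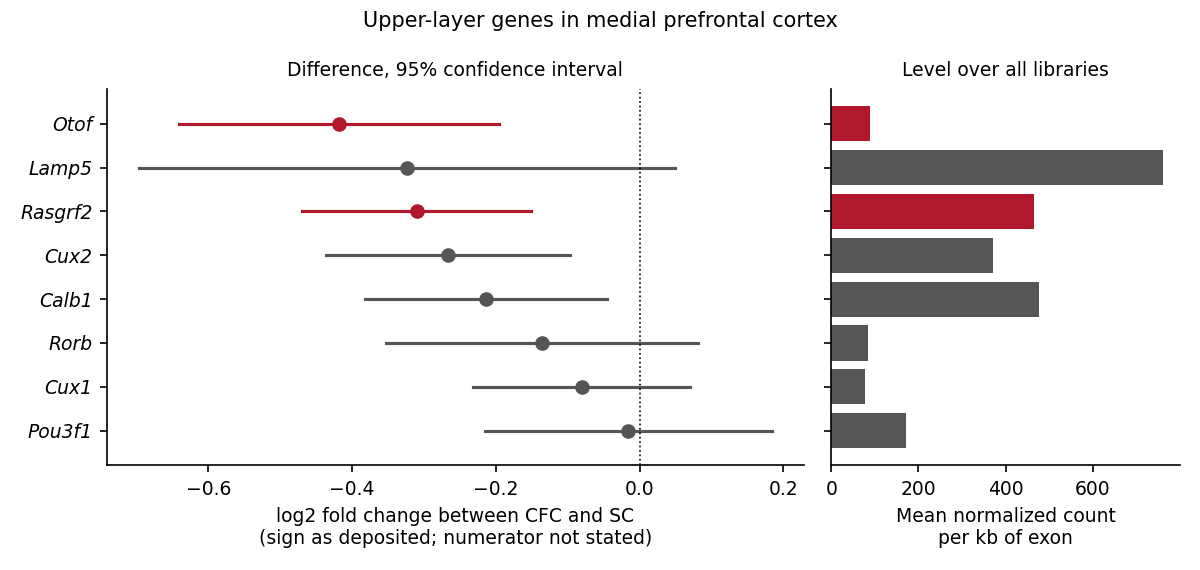
The left panel plots the log2 fold change of each gene (x axis, deposited sign) with its 95% confidence interval, and the right panel its mean normalized count per kb of exon (bars). Genes with an adjusted p-value under 0.05 are red; all 8 points lie left of 0, and the intervals of Lamp5, Rorb, Cux1 and Pou3f1 reach across it.

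The 4 transcription factors gave log2 fold changes from -0.27 to -0.02, and none of them passed the threshold. Cux2 (ENSMUSG00000042589, chr5:121856366-122050102, minus strand) encodes a CUT-domain homeodomain protein that shapes dendrites and spines of upper-layer neurons. Its mean normalized count was 3739, and its log2 fold change was -0.27 ± 0.09 (SE), adjusted p = 0.170, in the authors' deposited table. The 95% interval ran from -0.44 to -0.10, or from -26.1% to -6.48% on the linear scale. Cux2 therefore missed the threshold by adjustment only, with an unadjusted p-value of 0.00209 and rank 176 of 13060 by p-value.

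Its paralog Cux1 (ENSMUSG00000029705, chr5:136248135-136567490, minus strand) had a log2 fold change of -0.08 ± 0.08 (SE), adjusted p = 0.971, in the authors' deposited table. Its interval, from -0.23 to 0.07, leaves out the values of Cux2, Rasgrf2, Lamp5 and Otof but overlaps the interval of each of them. Those intervals ran from -0.44 to -0.10, -0.47 to -0.15, -0.70 to 0.05 and -0.64 to -0.20, in the same order. The Cux1 gene also encodes CASP, a Golgi membrane protein made by alternative splicing, and GENCODE M21 lists 14 transcripts for it, so a count per gene adds products of different function. Exons of Cux1 share 394 bases with the antisense gene Gm16599, and no strand setting is given in the sources used here. Per kb of exon, the mean normalized count of Cux2 was 371 and that of Cux1 77.1, a ratio of 4.81. The length used joins the exons of all annotated transcripts, 10082 bp for Cux2 and 20024 bp for Cux1, so this ratio depends on the annotation. The mean normalized counts themselves were 3739 and 1543. The difference in fold change between the paralogs was not tested, because it needs values per library.

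Rorb (ENSMUSG00000036192, chr19:18930605-19111196, minus strand) encodes an orphan nuclear receptor that specifies layer 4 neurons of sensory cortex. Its log2 fold change was -0.14 ± 0.11 (SE), adjusted p = 0.932, in the authors' deposited table. The interval from -0.35 to 0.08 holds both 0 and the value of Rasgrf2. Pou3f1 (ENSMUSG00000090125, chr4:124656807-124660655, plus strand), a POU-homeodomain factor whose gene is 1 exon of 3849 bp, lay nearest to 0. Its log2 fold change was -0.02 ± 0.10 (SE), adjusted p = 0.999, in the authors' deposited table. Its interval, from -0.22 to 0.18, corresponds to -13.9% to 13.6%. Exons of Pou3f1 share 330 bases with the antisense gene Gm2164, so reads of the pair may be mixed.

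Rasgrf2, Otof and Calb1 act in calcium signalling, and the first 2 of them passed the threshold. Rasgrf2 (ENSMUSG00000021708, chr13:91880400-92131656, minus strand) encodes a calmodulin-regulated exchange factor that activates Ras and Rac. It was the most abundant of the 8 by mean normalized count, 4304, and had a log2 fold change of -0.31 ± 0.08 (SE), adjusted p = 0.0361, in the authors' deposited table. The interval of -0.47 to -0.15 is -27.8% to -9.90% on the linear scale, around a value of -19.3%. By Wald statistic it was 15th from the lowest of 13060 genes.

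Otof (ENSMUSG00000062372, chr5:30367062-30461932, minus strand) encodes otoferlin, a ferlin with several C2 domains that acts as a calcium sensor for transmitter release in inner hair cells and whose transcript marks layer 2/3 neurons in cortex. It had the lowest log2 fold change of the 8, -0.42 ± 0.11 (SE), adjusted p = 0.0496, in the authors' deposited table. Its interval ran from -0.64 to -0.20, or -35.8% to -12.7%. The call was narrow. The smallest Wald statistic, in absolute size, among called genes was 3.68, and that of Otof was -3.69. With no filter on the mean count the adjusted p-value was 0.0592.

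Calb1 (ENSMUSG00000028222, chr4:15881264-15908064, plus strand) encodes calbindin, a cytosolic calcium buffer. Its log2 fold change was -0.21 ± 0.09 (SE), adjusted p = 0.395, in the authors' deposited table. The interval from -0.38 to -0.05 did not reach 0, and the unadjusted p-value was 0.0129.

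Lamp5 (ENSMUSG00000027270, chr2:136052239-136069917, plus strand) encodes a neuronal member of the lysosome-associated membrane protein family. Its log2 fold change of -0.32 lay between those of Rasgrf2 and Otof in the authors' deposited table. The standard error was 0.19, against 0.08 for Rasgrf2, and the adjusted p-value was 0.793 in the authors' deposited table. The interval, -0.70 to 0.05, includes no difference as well as a difference larger than that of Otof. At this error, a log2 fold change of 0.70 in size would have been needed for a call, against 0.28 for Cux1 and 0.32 for Cux2.

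The standard errors were measured against those of other genes of similar abundance, by dividing each by a running median over 500 genes ordered by mean count. All 8 ratios were above 1, from 1.11 for Cux1 to 2.96 for Lamp5, with a median of 1.35. Of the 8 genes, 7 were above the 90th percentile of that ratio over all genes, which was 1.17. Only Lamp5 exceeded 2, as did 1.85% of the 13060 genes. The estimated variation between libraries was thus larger for these transcripts than for most others of like abundance, with the ratio of Cux1 at percentile 84.6 and that of Cux2 at percentile 97.2. Markers of oligodendrocytes, at a median ratio of 6.63, and of striatum, at 3.32, lay higher still, while Sst interneuron markers lay at 1.06 and microglia markers at 0.982. Lists of other cortical layers lay near the 8 genes, at 1.26 for layer 2/3, 1.35 for layer 5 and 1.42 for layers 6 and 6b. Intratelencephalic genes of all layers lay at 1.35 and astrocyte markers at 1.31. A raised ratio was thus not particular to the upper-layer genes.

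**Figure D2:**
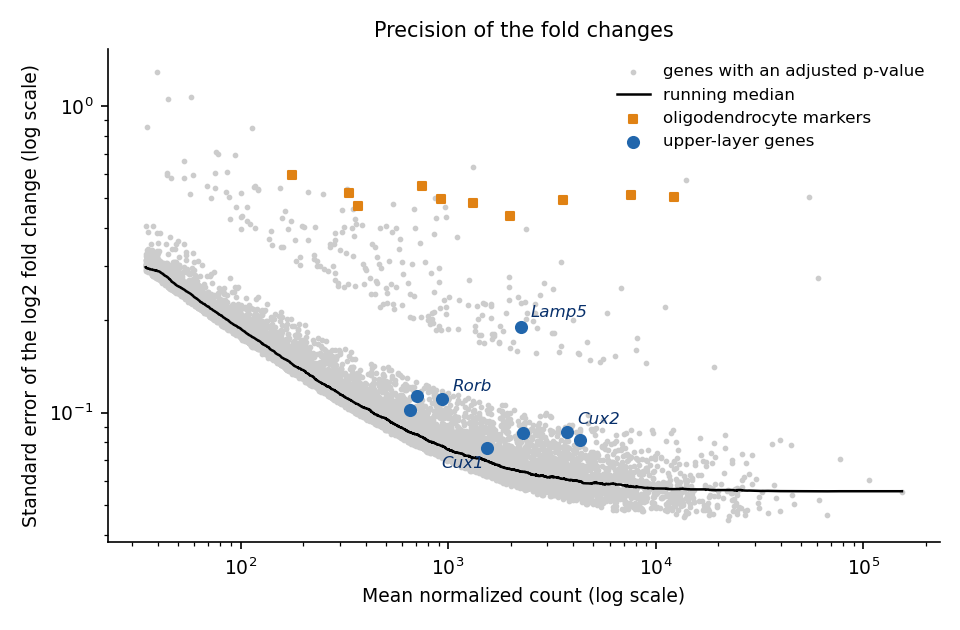
Standard error of the log2 fold change (y axis, log scale) against mean normalized count (x axis, log scale) for the genes with an adjusted p-value in grey, their running median as a line, the 8 upper-layer genes in blue and oligodendrocyte markers as orange squares. All 8 blue points lie above the line, Lamp5 farthest at 2.96 times the median.

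The 8 genes were well expressed, with mean normalized counts from 659 for Pou3f1 to 4304 for Rasgrf2 in the authors' deposited table, at percentiles 56.5 and 93.4 of the genes with an adjusted p-value. Levels between genes were compared per kb of exon, with the exons of all annotated transcripts joined, so the order depends on the annotation. On that scale Lamp5 was highest at 762, followed by Calb1 at 476, Rasgrf2 at 466, Cux2 at 371, Pou3f1 at 171, Otof at 89.6, Rorb at 84.7 and Cux1 at 77.1. Highest and lowest differed 9.89-fold. The called genes Rasgrf2 and Otof stand at different levels in this order, and in the scatter of all genes by abundance no gene of the list is near the low-count edge. Since mean counts carry no error in the table, neighbours in the order could not be compared with their spread.

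**Figure D3:**
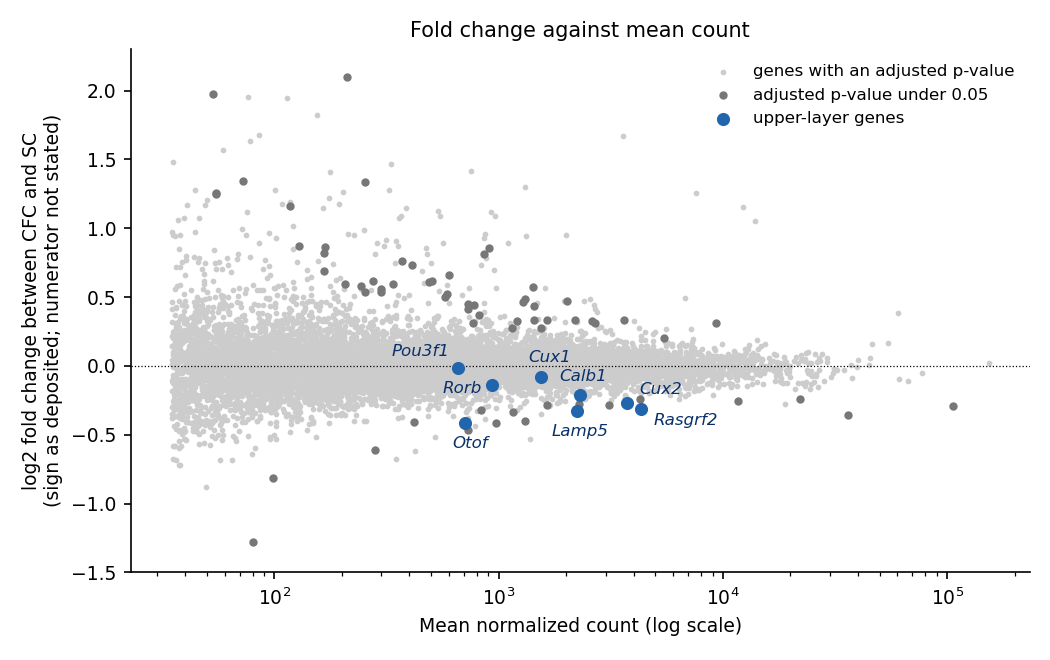
Log2 fold change (y axis, deposited sign) against mean normalized count (x axis, log scale); light grey, genes with an adjusted p-value; dark grey, genes with an adjusted p-value under 0.05; blue, the 8 upper-layer genes. The blue points lie between mean counts of 659 and 4304 and all below 0; 4 genes fall outside the plotted range.

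Other genes were described from lists drawn up for layer 2/3 and for layer 4, and their layers were not tested in these data. Of 18 layer 2/3 genes, 16 had an adjusted p-value, and 12 of these were negative and 4 positive, with log2 fold changes at a median of -0.15. None passed the adjusted threshold in the authors' deposited table. Under an unadjusted 0.05 lay 5 negative genes and 1 positive gene, where 3.54% and 4.56% of all genes were found.

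The lowest of the layer 2/3 list was Stard8, a GTPase-activating protein, with a log2 fold change of -0.32 ± 0.09 (SE), adjusted p = 0.0950, in the authors' deposited table. The others negative at that level, named after their values were seen, were Nectin3 at -0.24, Cbln2 at -0.24, Wfs1 at -0.22 and Pou3f3 at -0.14. Nectin3 is an adhesion molecule, Cbln2 a secreted synapse organizer, Wfs1 an endoplasmic reticulum protein and Pou3f3 a POU factor of upper-layer neurons. The highest was Adamts2, a procollagen protease, at 0.63 ± 0.18 (SE), adjusted p = 0.0694, in the authors' deposited table.

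Of 8 genes listed for layer 4, 6 had an adjusted p-value, 3 negative and 3 positive, and none was called. Their log2 fold changes had a median of -0.09. The positive genes were Whrn at 0.02, Hsd11b1 at 0.01 and Rora, in the authors' deposited table. Whether each gene of this list marks layer 4 in this tissue was not tested. The sodium channel subunit Scnn1a was lowest at -0.41 ± 0.35 (SE), and the nuclear receptor Rora highest at 0.06 ± 0.23 (SE), in the authors' deposited table. One gene lay under an unadjusted 0.05, the nuclear receptor Nr2f1, named after its value was seen, at -0.20 ± 0.08 (SE), adjusted p = 0.356, in the authors' deposited table. Restricted to the 3 genes whose mean count reached 100, the median of the list was 0.02, which is the value of Whrn.

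Genes shared by intratelencephalic neurons of all layers lay on both sides of 0. The 7 reported here all had an adjusted p-value, 4 of them negative and 3 positive, with log2 fold changes at a median of -0.06 and no call. The zinc transporter Slc30a3 was lowest at -0.26 and the LIM-only factor Lmo3 highest at 0.45 in the authors' deposited table, and these 2 lay under an unadjusted 0.05.

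A list of 8 genes, some pan-neuronal and some of glutamatergic neurons, had log2 fold changes at a median of -0.02, 5 negative and 3 positive. One passed the threshold, the kinase subunit Camk2a, with a log2 fold change of -0.29 ± 0.06 (SE), adjusted p = 0.00151, in the authors' deposited table. The highest of this list was the transcription factor Neurod2 at 0.12. Under an unadjusted 0.05 lay 3 negative genes and 0 positive genes of this list. Beside Camk2a these were the calmodulin-binding protein Nrgn at -0.28 ± 0.08 (SE), adjusted p = 0.0756, and the splicing factor Rbfox3 at -0.17 ± 0.07 (SE), adjusted p = 0.437, in the authors' deposited table, both named after their values were seen.

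Genes of layers 6 and 6b carried the other sign. All 12 were positive, with log2 fold changes at a median of 0.55, and 7 passed the adjusted threshold, where 0.368% of all genes passed with a positive sign. Those 7 were Ccn2, Nxph4, Foxp2, Sulf1, Zfpm2, Hs3st4 and Tle4, at 2.10, 1.98, 0.73, 0.62, 0.53, 0.49 and 0.33 in the authors' deposited table. The lowest was the transcription factor Tbr1, at 0.22 at an adjusted p of 0.170 in the authors' deposited table. The highest upper-layer value, -0.02 for Pou3f1, lay below that of Tbr1, but their confidence intervals overlapped. The interval ran from -0.22 to 0.18 for Pou3f1 and from 0.08 to 0.36 for Tbr1. The separation of the lists was not tested. The lists were chosen with the contrast between upper layers and layers 6 and 6b known.

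The layer 5 list lay between. Of its 12 genes, 11 had an adjusted p-value, 9 positive and 2 negative, with log2 fold changes at a median of 0.09 and no call. The zinc finger factor Bcl11b was highest at 0.49 ± 0.20 (SE), and Lratd2 lowest at -0.13 ± 0.16 (SE), in the authors' deposited table. The standard error of Bcl11b was 3.18 times the running median, against a median ratio of 1.35 for the list. Under an unadjusted 0.05 lay 3 positive genes and 0 negative genes, where 4.56% and 3.54% of all genes were found. Beside Bcl11b these were Fezf2 and Crym, both named after their values were seen. Fezf2 was at 0.28 ± 0.08 (SE), adjusted p = 0.0581, in the authors' deposited table, with a ratio of 1.07. Crym was at 0.25 ± 0.11 (SE), adjusted p = 0.467, there.

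**Figure D4:**
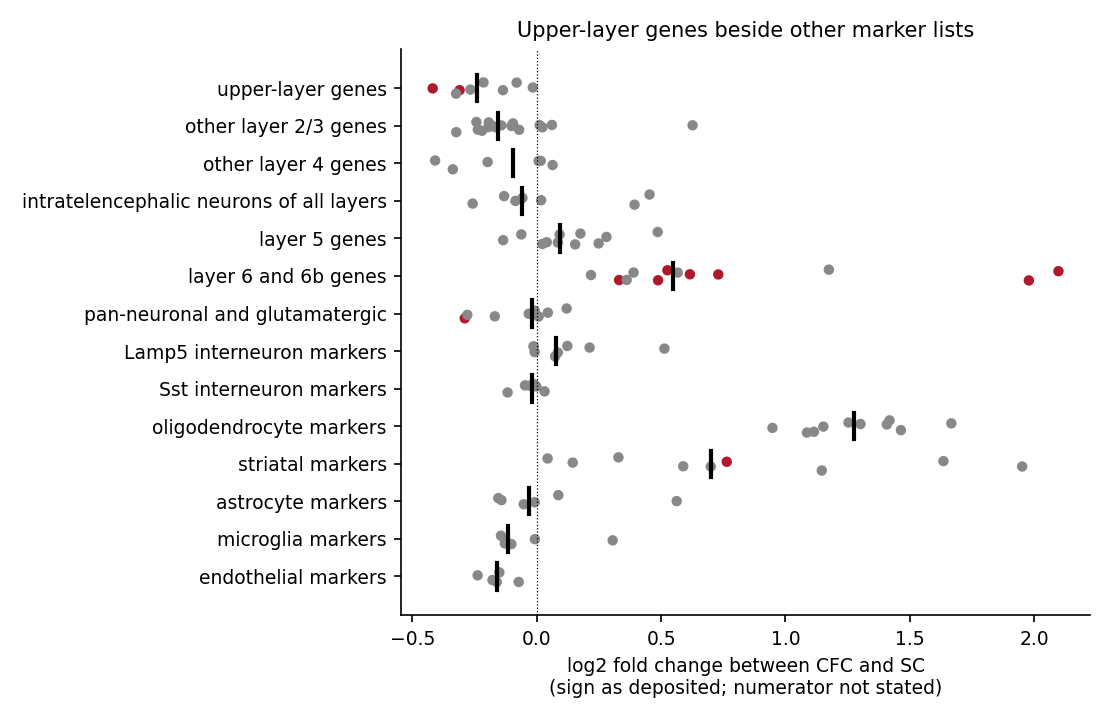
Log2 fold change (x axis, deposited sign) of each gene with an adjusted p-value, by marker list (rows); red points have an adjusted p-value under 0.05 and black bars are medians. The median is -0.24 for the upper-layer genes, 0.09 for layer 5, 0.55 for layers 6 and 6b and 1.28 for oligodendrocyte markers; points are spread vertically only for visibility.

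Markers of other cells and regions also stood away from 0 in this comparison. All 10 oligodendrocyte markers were positive, with log2 fold changes at a median of 1.28. All 10 were under an unadjusted p-value of 0.05 and none passed the adjusted threshold. They ran from 0.95 for the myelin enzyme Cnp to 1.67 for the myelin protein gene Mobp in the authors' deposited table. All 9 striatal markers were positive too, with a median of 0.70. They ran from the neuropeptide gene Tac1 at 0.04 to the adenosine receptor Adora2a at 1.95 in the authors' deposited table. Of the 9, only the dopamine receptor Drd1 passed, at 0.76 at an adjusted p of 3.66e-05 in the authors' deposited table. Its standard error was 1.25 times the running median, against a median ratio of 3.32 for the list. Whether Drd1 stood for striatum alone was not tested. The part of these cells and regions in the upper-layer values was not tested.

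For the GABAergic cells that share Lamp5 and Calb1, separate markers were read. The 8 Lamp5 interneuron and GABA synthesis genes had log2 fold changes at a median of 0.08, with 5 positive, 3 negative and no call. They ran from Gad1, a GABA-synthesizing enzyme, at -0.01 to the secreted factor Ndnf at 0.51 ± 0.46 (SE) in the authors' deposited table. Of 7 Sst interneuron markers 6 had an adjusted p-value, with a median of -0.02, from the neuropeptide gene Cort at -0.12 to Sst itself at 0.03 in the authors' deposited table. No gene of either list was under an unadjusted p-value of 0.05.

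Each gene was then set beside the measured relatives of its protein family. Rasgrf1, the other Ras-GRF exchange factor and also calcium-regulated, had a log2 fold change of 0.00041 ± 0.07 (SE) in the authors' deposited table. Its 95% interval, -0.13 to 0.13, does not overlap that of Rasgrf2, -0.47 to -0.15, although the difference itself was not tested. Per kb of exon Rasgrf1 was the more abundant, at 913 against 466.

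Among CUT-domain factors, Satb1 and Onecut2 were at 0.10 and 0.14, Onecut3 had a mean normalized count of 1.49 and no adjusted p-value in the authors' deposited table, and Onecut1 was not analysed here. Of the class 3 POU factors, Pou3f2 and Pou3f3, both known from upper-layer neurons, were at -0.10 and -0.14 in the authors' deposited table. Pou3f4 was positive, at 0.49 ± 0.24 (SE), adjusted p = 0.596, in the authors' deposited table. Pou3f1, at -0.02, thus lay between its relatives. Rora, a relative of Rorb in the ROR family, has been given above.

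Of the ferlins, Dysf and Myof, which serve membrane repair, were at -0.23 and 0.26, and Fer1l5 was at 0.01, in the authors' deposited table. Their adjusted p-values were 0.876, 0.862 and 0.999 in the authors' deposited table, so Otof was the only one of the 4 ferlins with an adjusted p-value that passed. Fer1l6 had a mean normalized count of 7.02 and no adjusted p-value there, and Fer1l4 was not analysed here. The broadly expressed lysosomal proteins Lamp1 and Lamp2 were at 0.03 and 0.02 with SEs of 0.07 and 0.09, and Cd68, a macrophage and microglial member, at -0.20 ± 0.18 (SE), in the authors' deposited table. Lamp3 was not analysed here. Among calcium buffers, Calb2 was at 0.15 and Pvalb at -0.23, with SEs of 0.16 and 0.30, in the authors' deposited table. S100g had a mean normalized count of 2.49 and no adjusted p-value there.

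**Figure D5:**
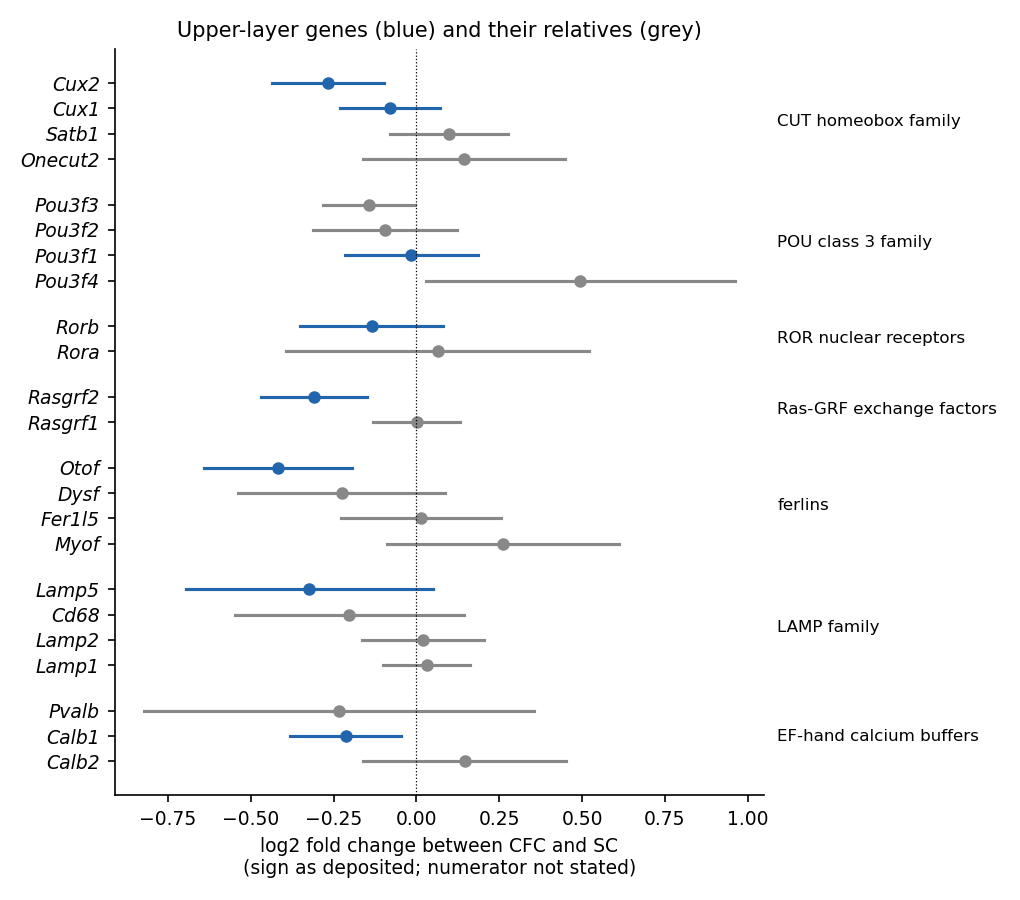
Log2 fold change (x axis, deposited sign) with 95% confidence intervals for the upper-layer genes (blue) and relatives in their protein families that had an adjusted p-value (grey), grouped by family. The interval of Rasgrf2, -0.47 to -0.15, lies apart from that of Rasgrf1, -0.13 to 0.13.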

How the data were processed

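Libraries were made from total RNA with a kit that selects polyadenylated RNA, per the labels' protocols. Per the labels, the submitters' processing notes name Trimmomatic, Subread, DESeq2 and the build mm10, without roles, versions or annotation. Per the file headers, the authors' deposited table holds for each gene a mean normalized count, which is a signal averaged over libraries, a log2 fold change with its standard error, a Wald score, an unadjusted p-value and one adjusted for multiple testing. The depth of single libraries is unknown. In all genes the deposited Wald score was within 2.49e-14 of the ratio of the log2 fold change to its standard error. Adjusted p-values are given for 13060 of 17732 genes, all with a mean count of 34.9 or more.

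A count test had been planned for counts per library, with the authors' own test for a results table, and the latter was used, at an adjusted p-value of 0.05 over all genes. Intervals at 95% used the normal quantile. These steps ran in Python 3.11.15 with SciPy 1.17.1 and were tested on simulated data. Where a symbol had several IDs, the most abundant was used. Exon lengths and positions are from GENCODE M21 (GRCm38, the build named as mm10), which held 17726 of the IDs. Named were all 8 genes, measured relatives in their families, and for each of the other lists its called, lowest and highest genes. The members, the 20 lists and the motifs were chosen with earlier results of these data known. Some listed genes are not reported here. Whether libraries came from separate animals is not stated, so p-values measure the spread between these libraries.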

Additional observations from a re-analysis of the deposited data

How the results depend on the processing

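No paired analysis was possible because the table holds no values per library, and for the same reason leaving out a library, other normalizations and other count tests were not run. Of the 67 genes called, 19 were negative. An adjusted threshold of 0.1 gave 101 genes, and 0.01 gave 35. A Bonferroni adjustment gave 21 and a test against changes of up to 1.2-fold gave 2. With a t distribution of 5 degrees of freedom in place of the normal, none of the 13060 genes passed, and 394 were under an unadjusted 0.05 against 1058 with the normal. The other 4 alternatives gave 60 to 75 genes.

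Of the 8 upper-layer genes, the 2 called, Rasgrf2 and Otof, stayed under the threshold at 0.1 and with a mean count of at least 100. They also did so with the adjustment recomputed over the 13060 genes that have an adjusted p-value, and after centring on the median. Only 1, Rasgrf2, passed with no filter on the mean count. The count was 0 at a threshold of 0.01, with Bonferroni, with the 1.2-fold test and with the t distribution. Negative at an unadjusted p-value under 0.05 were 4 genes, 3 with the t distribution (where 1.19% of all genes were) and 0 with the 1.2-fold test (0.0459%). The 6 uncalled members stayed uncalled in all 9 alternatives. Of the named genes' alternatives, 29 became weaker and 2 stronger. The threshold of 0.01, Bonferroni, the 1.2-fold test and the t distribution are stricter as constructed, and with no filter more genes were tested. The threshold of 0.1 is looser as constructed, so both calls were bound to hold there. A mean count of at least 100 and the recomputed adjustment correct for fewer genes than the deposited adjustment did. The adjusted p-value of Otof fell from 0.0496 to 0.0423 and 0.0449 with these. Centring moved each log2 fold change by 0.0017 only. That the calls held in these settings is therefore no support for them. Centring on the median log2 fold change, -0.0017, left all 8 genes negative. Standard errors from 7 libraries limit what could be called, at a log2 size of 0.28 for Cux1 and 0.70 for Lamp5.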

Other observations

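Markers of vessels and glia were read from further lists. All 5 endothelial genes were negative, with log2 fold changes at a median of -0.16 and 2 of them under an unadjusted p-value of 0.05. They ran from the transporter Slco1a4, at -0.24 ± 0.08 (SE), to Ly6c1 at -0.07 in the authors' deposited table. Of 6 microglia genes 5 were negative, with a median of -0.11, from the receptor Csf1r at -0.14 to Aif1 at 0.31 in the authors' deposited table. Of 6 astrocyte genes 4 were negative, with a median of -0.03, from Aldh1l1, a folate enzyme, at -0.15 to the filament gene Gfap at 0.56 ± 0.43 (SE) in the authors' deposited table. None of these 17 genes was under an adjusted 0.05 in the authors' Wald test. The median of the upper-layer genes, -0.24, lay below these 3 medians, and that difference was not tested.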
